A study of Mus musculus with 10 samples.

Results

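The semaphorins, plexins, neuropilins, netrins, Unc5 receptors, Slits, Robo receptors, ephrins and Eph receptors are the classical ligands and receptors of axon guidance. They were followed here in the aortae of young and old mice. The members were taken by gene symbol alone, as every row of the count table that carries a numbered or lettered family name, for example Sema3e, Plxna4 or Ephb1. The rule uses no measured value, but these families were picked with earlier results of these data known. This gave 70 of the 55453 gene symbols in the table: 20 semaphorins, 9 plexins, 2 neuropilins, 6 netrins, 4 Unc5 receptors, 3 Slits, 4 Robo receptors, 8 ephrins and 14 Eph receptors. By role, 37 of these genes encode ligands and 33 encode receptors. All 70 symbols matched a protein-coding gene of the GENCODE M21 annotation of the mouse genome build GRCm38.

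RNA was sequenced from whole aortae of 10 male mice of the strain C57BL/6, 5 aged 14.5 weeks (young) and 5 aged 92.5 weeks (old), with 1 library for each mouse. The labels name no engineered allele and no agent, so that age is the only labelled difference. The fat around the vessel had been removed, and poly(A) RNA was sequenced from the remaining wall. The wall holds smooth muscle cells, endothelial cells, adventitial fibroblasts and small numbers of other cells. The measurement covers messenger RNA only, in 1 sex and at 2 ages. In such bulk samples, fewer cells of a type and less RNA per cell cannot be told apart.

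Guidance cues were named for their work on the growing tips of nerve fibres, which they attract or repel. The same cues also act on vessels, where they steer sprouting endothelial cells, set the boundary between artery and vein, and act on the adhesion and movement of smooth muscle and immune cells. Secreted class 3 semaphorins bind neuropilins in complex with A-type plexins or bind plexin D1, and most membrane-bound class 4 semaphorins bind B-type plexins. Secreted netrins bind Dcc, neogenin and the Unc5 receptors, and Slits bind Robo receptors. Ephrins and Eph receptors are both held at the cell surface, so that they signal between cells in contact, in both directions.

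The libraries held 19640401 to 22886153 counts each, without a separation of the groups in the test of their totals (exact permutation test, two-sided, p = 0.754, n = 5 per group). The smooth muscle markers, 8 of 8 detected, summed to 36875 to 43659 CPM, counts scaled to a common library total, in young and 34450 to 41996 in old aortae, and were thus present throughout the labelled tissue. Old replicate 2 stood apart from the other old libraries: mitochondrial genes held 11.0% of its counts, against 5.19% to 6.51% in the other 4, and its summed endothelial markers were the highest of the old group. Young replicate 1 had the highest adipocyte marker sum, 1114 CPM against 288 to 568 in the other young libraries.

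In the comparison of old with young aortae, 18 of the 61 guidance genes with enough reads to be tested changed at an adjusted p below 0.05, 6 of them higher and 12 lower in old. Secreted Sema3e and the netrin receptor Unc5a rose the most, and the receptor Ephb1 and the membrane semaphorin Sema5b fell the most. All tested ephrin and Eph genes that passed the threshold fell, 2 of 7 ephrins and 4 of 10 Eph receptors. Paralogs moved in opposite directions among the Slits, the class 3 semaphorins and the A-type plexins. Slit2 fell and Slit3 rose, Sema3b and Sema3c fell and Sema3e rose, and Plxna4 fell and Plxna3 rose. The calls of Slit3, Plxnb2, Sema4c, Efna5, Epha4 and Ephb4 were lost when some single mice were left out, and that of Sema5a without young replicate 4.

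The 18 genes are 29.5% of the 61 tested. Among all 14614 genes tested, 1676 passed the same threshold, which is 11.5%. By direction, the 6 members that rose are 9.84% of those tested, against 6.48% of all genes, and the 12 that fell are 19.7%, against 4.99% of all genes. The values of the 5 old and the 5 young mice did not overlap for 13 members, 3 higher and 10 lower in old, which is 21.3% of those tested, against 9.92% of all genes. The median log2 fold change of the 61 members was -0.08, against 0.00 for all genes, with 26 members above and 35 below zero. Ligands and receptors passed the threshold in like shares, 10 of 34 ligands and 8 of 27 receptors. Of the 61, 57 were over the low-count limit in all 10 libraries, Ntng1 and Sema5b were over it in every young library but not in every old one, and Plxnb3 and Sema4f in every old library but not in every young one. These shares are given as a description and were not tested for the list as a whole. With single mice left out, the count of called members was lowest without young replicate 4, at 11 members, 3 higher and 8 lower. The number called higher was also 3 without old replicate 1, 3 or 4.

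**Figure D1:**
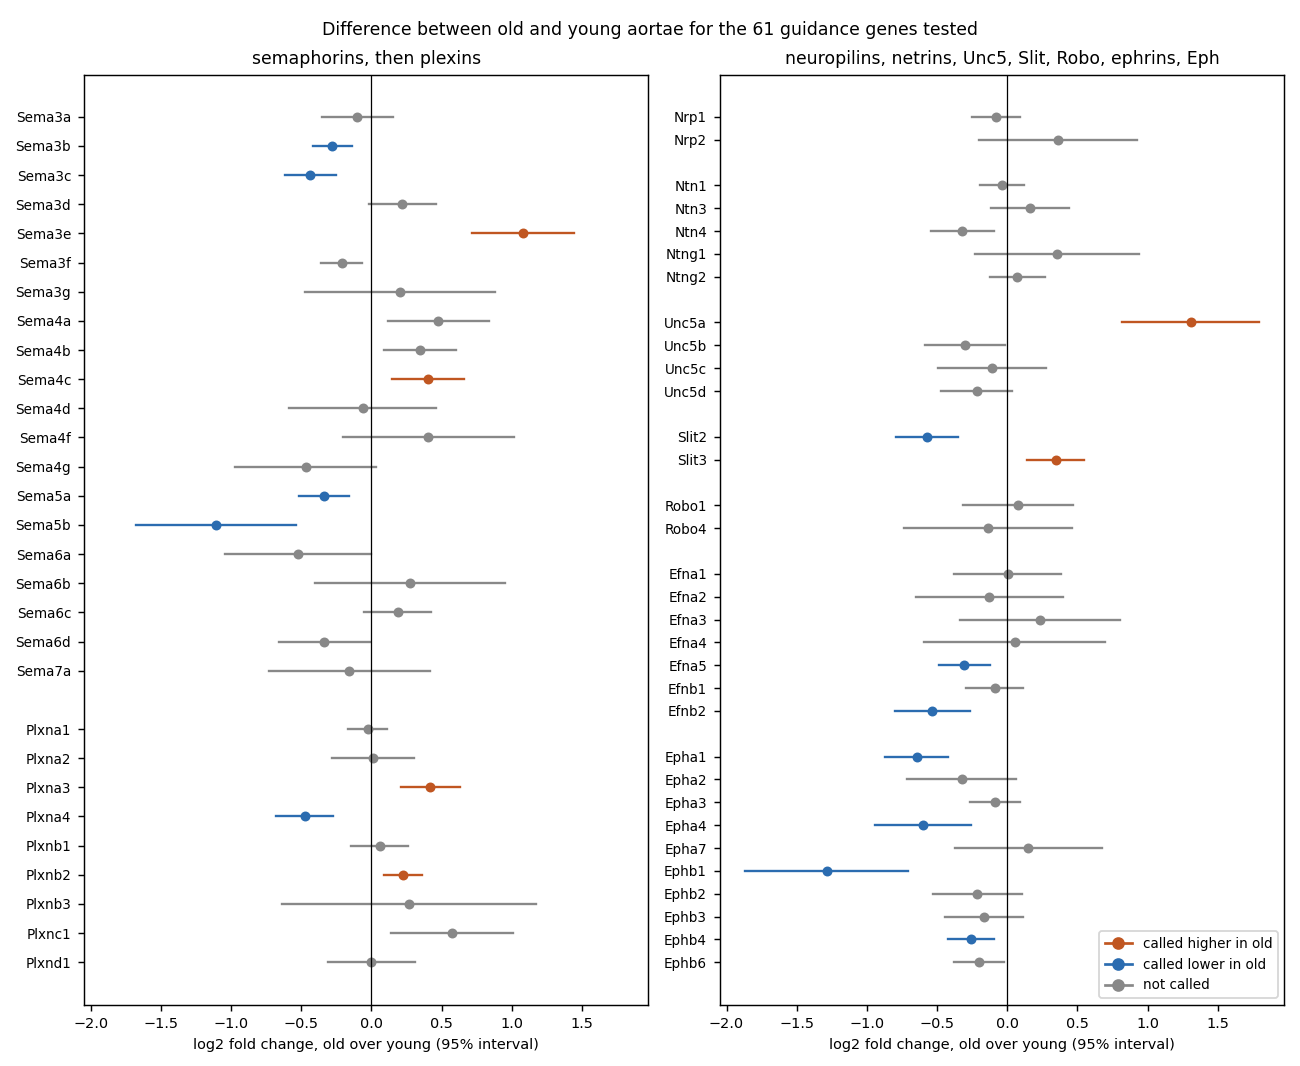
Log2 fold change of each of the 61 tested guidance genes, old over young (x axis), by family (y axis). Points are the edgeR estimates and lines their 95% intervals, orange for the 6 genes called higher, blue for the 12 called lower and grey for the 43 not called. Ephrins and Eph receptors hold blue and grey points only, and the Slit, plexin and semaphorin families hold both colours.

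The values below are normalized counts, that is read counts divided by a size factor for each library, listed for replicates 1 to 5 of a group. Fold changes are log2 ratios of old over young from edgeR's quasi-likelihood test, each with its standard error (SE) and a p-value adjusted over all 14614 genes. A gene is called where this adjusted p is below 0.05. Each call was also examined under 19 alternatives, namely DESeq2, a stricter threshold, 3 other scalings, a correction for GC content and length, 2 other low-count filters, the replicate number as a block and each of the 10 mice left out. Positions are those of the whole gene on GRCm38, and reads were counted over its exons, untranslated parts included. Means are given ± SD over the 5 mice of a group. Levels are compared between genes only as CPM per kilobase of exon, with all annotated exons of a gene merged.

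Among the 7 secreted class 3 semaphorins, 1 rose and 2 fell. Sema3e, a repulsive cue that binds plexin D1 directly and guides vessel growth in the embryo (chr5:14025276-14256689, plus strand), rose. Its normalized counts were 167, 221, 206, 240.4 and 295 in the young mice and 478, 452, 639, 448 and 353 in the old mice. Every old mouse lay above every young mouse. The means were 226 ± 47.2 in young and 474 ± 104 in old mice, and the log2 fold change was 1.08 (SE 0.17, adjusted p = 0.00173).

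Sema3c, which acts through neuropilins and plexins and is needed for the septation of the cardiac outflow tract (chr5:17574281-17730268, plus strand), fell. Counts in the young mice were 4861, 5943, 5947, 5225 and 5915, and in the old mice 4268, 3548, 4474, 4463 and 3785. The groups did not overlap, and the means were 5578 ± 505 in young and 4107 ± 419 in old mice, with a log2 fold change of -0.43 (SE 0.08, adjusted p = 0.00499). Sema3b, a secreted semaphorin that binds neuropilins (chr9:107597674-107609229, minus strand), fell by a smaller amount. Its counts were 1758, 1874, 1554, 1705 and 1772 in young and 1430.0, 1272, 1417, 1434 and 1553 in old mice, the highest old value lying just under the lowest young one. The means were 1733 ± 117 in young and 1421 ± 99.9 in old mice, with a log2 fold change of -0.28 (SE 0.06, adjusted p = 0.0136). All 3 of these calls held when any single mouse was left out.

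The other 4 class 3 genes were not called. Sema3f, the most abundant semaphorin per length, had means of 4306 ± 311 in young and 3698 ± 249 in old mice and a log2 fold change of -0.21 (SE 0.07, adjusted p = 0.0589). It passed the threshold with DESeq2, at an adjusted p of 0.0209, with the correction for GC content and length, at 0.0156, and without young replicate 3 or old replicate 1, at 0.0314 and 0.0478. Sema3d, with a log2 fold change of 0.22 and a 95% interval of -0.02 to 0.46, Sema3a (-0.10, -0.35 to 0.15) and Sema3g (0.21, -0.47 to 0.88) had intervals that include no change. Sema3d, Sema3a, Sema3e and Sema3c lie in this order on the plus strand of chromosome 5, within 5.35 Mb (12383385 to 17730268). In this stretch the first 2 genes were not called, the third rose and the fourth fell.

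The promoter windows of Sema3e and Sema3c are shown because these neighbours on one strand moved in opposite directions. Each runs from 250 bases before to 50 bases after the RefSeq start of transcription on GRCm38.p6, 5′ to 3′, with the searched motifs in capitals: the GC box GGGCGG, and in Sema3e also the E-box CACGTG. A GC box on the other strand reads CCGCCC. The windows are chr5:14025026-14025325 and chr5:17574566-17574865, both on the plus strand.
Sema3e: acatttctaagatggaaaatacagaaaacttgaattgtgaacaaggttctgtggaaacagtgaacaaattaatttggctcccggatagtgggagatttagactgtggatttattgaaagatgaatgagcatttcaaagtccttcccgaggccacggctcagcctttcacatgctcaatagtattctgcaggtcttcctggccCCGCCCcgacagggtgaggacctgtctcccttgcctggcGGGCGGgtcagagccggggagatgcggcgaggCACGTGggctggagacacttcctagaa
Sema3c: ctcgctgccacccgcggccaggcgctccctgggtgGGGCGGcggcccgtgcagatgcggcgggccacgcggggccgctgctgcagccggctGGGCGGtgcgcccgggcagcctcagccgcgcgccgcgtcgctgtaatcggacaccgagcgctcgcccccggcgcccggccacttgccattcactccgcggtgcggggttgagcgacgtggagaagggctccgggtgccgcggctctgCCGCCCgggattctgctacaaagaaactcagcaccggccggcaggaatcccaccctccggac
The Sema3e window held 2 GC boxes, 48 and 9 bases before the start, and 1 E-box 23 bases after it, with 50.7% G and C and 11 CG pairs. The Sema3c window held 3 GC boxes, 215, 159 and 12 bases before the start, and no E-box, with 75.7% G and C and 42 CG pairs.

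Per length, Sema3c exceeded Sema3e in every mouse, but by less in the old mice. The ratio of Sema3c to Sema3e was 37.9, 34.9, 37.5, 28.3 and 26.1 in the young mice and 11.6, 10.2, 9.10, 12.9 and 13.9 in the old mice. This ratio and those of the other opposed pairs were chosen after the values were seen and are given as a description.

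Of the 6 class 4 semaphorins, which are membrane-bound and act on plexins and on immune cells, 1 was called. Sema4c, a ligand of plexin B2 (chr1:36548639-36558349, minus strand), rose. The young mice had 603, 424, 432, 376 and 472 normalized counts and the old mice 586, 709, 628, 585 and 527. The groups overlapped, since young replicate 1 lay above 3 of the old mice. The means were 461 ± 86.4 in young and 607 ± 67.6 in old mice, with a log2 fold change of 0.40 (SE 0.12, adjusted p = 0.043). This call is close to the threshold: it was lost without any one of young replicates 2, 3, 4 and 5 and old replicates 1, 2, 3 and 4, at adjusted p of 0.0669 to 0.109. Of the exonic sequence of Sema4c, 7.27% is overlapped by D430040D24Rik on the other strand. Sema4a (0.48, adjusted p = 0.0807) and Sema4b (0.35, adjusted p = 0.0771) had positive log2 fold changes that missed the threshold, and both passed it without young replicate 1, at adjusted p of 0.0143 and 0.0129. Sema4d, Sema4f and Sema4g were not called, with log2 fold changes of -0.06, 0.41 and -0.47.

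Both class 5 semaphorins, membrane proteins with thrombospondin repeats, fell. Sema5a (chr15:32244810-32696341, plus strand) was the more abundant. Its normalized counts were 3652, 3587, 3842, 4033 and 4297 in young and 3347, 2854, 2612, 3517 and 2985 in old mice. All old mice lay below all young mice, and the means were 3882 ± 290.1 in young and 3063 ± 367 in old mice, with a log2 fold change of -0.33 (SE 0.08, adjusted p = 0.0196). Without young replicate 4 the adjusted p was 0.0522. Sema5b (chr16:35541145-35664732, plus strand) was near the low end of the measured range, with 40.9, 24.2, 29.9, 31.9 and 26.6 normalized counts in young and 17.0, 20.7, 14.0, 9.64 and 9.72 in old mice. Again the groups did not overlap. The means were 30.7 ± 6.43 in young and 14.2 ± 4.77 in old mice, with a log2 fold change of -1.10 (SE 0.26, adjusted p = 0.0165), and the call held without any single mouse. None of the 4 class 6 semaphorins and not the lipid-anchored Sema7a was called: the log2 fold changes were -0.52 for Sema6a, 0.28 for Sema6b, 0.19 for Sema6c, -0.34 for Sema6d and -0.16 for Sema7a.

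Of the 9 plexins, the signalling receptors for semaphorins, 2 rose and 1 fell. Plxna4, a receptor for class 3 and class 6 semaphorins (chr6:32144268-32588192, minus strand), fell. In young mice it had 2158, 2723, 2467, 2297 and 2423 normalized counts, and in old mice 2018, 1617, 1663, 1929 and 1418. No old mouse reached the lowest young one. The means were 2414 ± 211 in young and 1729 ± 244 in old mice, with a log2 fold change of -0.47 (SE 0.09, adjusted p = 0.00636). Its paralog Plxna3, which works with neuropilins in the response to class 3 semaphorins (chrX:74329066-74344689, plus strand), rose, with 209, 215, 174, 190.2 and 225 normalized counts in young and 313, 245, 259, 273 and 259 in old mice. The groups did not overlap either. The means were 203 ± 20.4 in young and 269.7 ± 26.0 in old mice, with a log2 fold change of 0.42 (SE 0.10, adjusted p = 0.014). Per length, Plxna4 remained the more abundant of the pair, at 5.78 to 7.90 times Plxna3 in the young and 3.06 to 3.95 times in the old mice. Both calls held without any single mouse.

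Plxnb2, a receptor for class 4 semaphorins and the most abundant plexin per length (chr15:89155549-89180788, minus strand), rose by a small amount. Its normalized counts were 4370.3, 4863, 4415, 4532 and 4661 in young and 5414, 4613, 5595, 5543 and 5368 in old mice. Old replicate 2 lay among the young mice, and the other 4 old mice lay above all of them. The means were 4568 ± 199.8 in young and 5306 ± 399 in old mice, with a log2 fold change of 0.22 (SE 0.06, adjusted p = 0.0346). Without old replicate 2 the log2 fold change was 0.27, at an adjusted p of 0.00766. The call was lost without any one of young replicates 3, 4 and 5 and old replicates 1, 3, 4 and 5, at adjusted p of 0.0586 to 0.0832, without the low-count filter, at 0.0585, and after a correction for GC content and length, at 0.11. The remaining plexins were not called. The interval was narrow for Plxna1 (-0.16 to 0.11) and wider for Plxna2 (-0.28 to 0.30), Plxnb1 (-0.15 to 0.26) and the endothelial Sema3e receptor Plxnd1 (-0.31 to 0.31). Plxnc1, a receptor for Sema7a found on immune cells, had a log2 fold change of 0.57 (SE 0.20, adjusted p = 0.0857) and passed the threshold without young replicate 1 or old replicate 2, at adjusted p of 0.0407 and 0.0397. Plxnb3 had a log2 fold change of 0.27, at means of 20.1 ± 14.0 in young and 24.1 ± 5.81 in old mice.

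Neither neuropilin was called. Nrp1, the co-receptor for class 3 semaphorins and vascular endothelial growth factor, had means of 2276 ± 287 in young and 2144 ± 111 in old mice and a log2 fold change of -0.08, with a 95% interval of -0.25 to 0.09. Nrp2 had means of 329 ± 129 in young and 421 ± 90.2 in old mice and a log2 fold change of 0.36, with a wide interval of -0.20 to 0.92. Thus the called members of the semaphorin system were 6 of its 20 ligands and 3 of its 11 receptors and co-receptors.

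Netrins, secreted or lipid-anchored proteins related to laminins, were not called, and 1 of the 4 Unc5 receptors rose. Ntn1, the founding member, was the most abundant netrin, with means of 11556 ± 680.2 in young and 11191 ± 1049 in old mice and a log2 fold change of -0.04 (95% interval -0.20 to 0.12). Ntn4, a netrin of basement membranes, had means of 2871 ± 398 in young and 2288 ± 282 in old mice and a log2 fold change of -0.32 (SE 0.10, adjusted p = 0.0676), and it passed the threshold with DESeq2, at an adjusted p of 0.0328, and without young replicate 1 or old replicate 3, at 0.0155 and 0.0385. The log2 fold changes of Ntn3, Ntng1 and Ntng2 were 0.16, 0.35 and 0.07.

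Unc5a, a repulsive netrin receptor known mainly from neurons (chr13:54949411-55006018, plus strand), rose. The young mice had 35.8, 15.1, 34.9, 22.2 and 26.6 normalized counts and the old mice 60.0, 54.5, 72.7, 74.2 and 70.0. Every old mouse had more than any young mouse. The means were 26.9 ± 8.72 in young and 66.3 ± 8.62 in old mice, with a log2 fold change of 1.31 (SE 0.23, adjusted p = 0.00267). The call held under all 19 alternatives. Per length, Unc5a was still below Unc5b and Unc5c: in the old mice Unc5a had 0.737 CPM per kilobase, Unc5b 6.37 and Unc5c 4.53. In the young mice it was also below Unc5d, at 0.298 against 0.619, whereas in the old mice Unc5d had 0.532. Unc5b, the netrin receptor of endothelial cells, had a log2 fold change of -0.30 (SE 0.13, adjusted p = 0.16). Unc5c and Unc5d had -0.11 and -0.22, with intervals of -0.49 to 0.28 and -0.47 to 0.04.

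The neuron marker sum was also higher on average in the old mice, short of 0.05 after adjustment, at 1.67 to 3.39 CPM in the young and 3.13 to 4.59 in the old mice (exact permutation test, two-sided, p = 0.0159, adjusted p = 0.0794 over the 15 tests of marker sums and library totals, n = 5 per group). All 8 markers were detected, but 6 were below the low-count limit. The pan-neuronal tubulin Tubb3 was the one that was called, at a log2 fold change of 1.6. Its mean normalized counts were 18.8 in young and 56.9 in old mice. Rbfox3 (8.00 and 4.54), Elavl4 (1.21 and 0.594), Th (2.45 and 0.436) and Dbh (2.03 and 0.404) had lower means in old mice. Prph (10.3 and 16.5), Snap25 (0.404 and 2.59) and Syt1 (3.40 and 3.56) had higher ones. The means thus went in both directions, and Tubb3 had the largest rise in normalized counts. Several of the low means rest largely on a single mouse. Young replicate 1 had 12.3 for Th and 8.18 for Dbh, young replicate 2 had 4.03 for Elavl4, and old replicate 1 had 8.99 for Snap25. The part of neuronal RNA in the Unc5a result was not tested.

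Both measured Slits changed, in opposite directions. Slit2, a secreted repellent that binds Robo1 and Robo2 (chr5:47983138-48307733, plus strand), fell. Its normalized counts were 586, 488, 548, 534 and 623 in young and 353, 296, 358, 417 and 433 in old mice. All old mice lay below all young mice. The means were 556 ± 51.3 in young and 371 ± 54.8 in old mice, with a log2 fold change of -0.57 (SE 0.10, adjusted p = 0.00303), and the call held under all 19 alternatives.

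Slit3, a secreted Slit known to be made by smooth muscle and other mesenchymal cells (chr11:35121224-35708507, plus strand), rose. The young mice had 9877, 11058, 12414, 11281 and 12704 normalized counts and the old mice 15286, 11429.8, 15234, 15803 and 14671. Old replicate 2 lay within the young range, and the other 4 old mice lay above it. The means were 11467 ± 1135 in young and 14485 ± 1754 in old mice, with a log2 fold change of 0.34 (SE 0.09, adjusted p = 0.0315). Without old replicate 2 the log2 fold change was 0.41, at an adjusted p of 0.00436. The call was lost without any one of young replicates 2 and 4 and old replicates 1, 3, 4 and 5, at adjusted p of 0.0629 to 0.0749, and after the correction for GC content and length, at 0.112. With 87.2 CPM per kilobase in young and 111 in old mice, Slit3 was the most abundant of all 70 genes per length, in young mice not beyond the spread of Ntn1 (84.9 ± 4.84). The ratio of Slit3 to Slit2 per length was 70.7, 94.98, 94.9, 88.6 and 85.5 in the young mice and 182, 162, 178, 159 and 142 in the old mice, without overlap. The size of this ratio depends on the exonic lengths used, 6067 bases for Slit3 and 25433 for Slit2, which are the same for every mouse.

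The promoter windows of Slit2 and Slit3 are shown for this opposed pair, at chr5:47982905-47983204 and chr11:35121206-35121505, both on the plus strand. GC boxes are in capitals, and in Slit2 also the TATA box TATAAA.
Slit2: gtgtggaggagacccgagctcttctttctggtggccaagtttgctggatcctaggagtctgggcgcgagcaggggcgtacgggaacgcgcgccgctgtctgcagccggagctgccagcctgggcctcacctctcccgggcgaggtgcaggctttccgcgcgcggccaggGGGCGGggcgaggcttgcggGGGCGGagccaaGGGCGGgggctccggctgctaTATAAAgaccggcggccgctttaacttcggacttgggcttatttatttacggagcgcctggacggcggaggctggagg
Slit3: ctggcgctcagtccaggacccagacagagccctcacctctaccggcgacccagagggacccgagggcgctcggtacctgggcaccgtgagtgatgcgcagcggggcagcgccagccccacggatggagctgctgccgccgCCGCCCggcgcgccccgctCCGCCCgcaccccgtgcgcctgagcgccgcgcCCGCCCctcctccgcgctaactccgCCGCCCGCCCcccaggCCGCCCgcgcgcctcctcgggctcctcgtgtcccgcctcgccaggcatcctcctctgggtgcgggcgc
The Slit2 window held 3 GC boxes and a TATA box 28 bases before the start, at 68% G and C. The Slit3 window held 6 GC boxes, 110 to 18 bases before the start and some of them overlapping, no TATA box, and 78.3% G and C.

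Neither tested Robo receptor passed the threshold. Robo1 had means of 141 ± 24.8 in young and 148 ± 40.0 in old mice and a log2 fold change of 0.08, with an interval of -0.31 to 0.47. Robo4, which is found on endothelial cells, had 255, 142, 169, 168 and 117 in young and 129.9, 269, 101, 126 and 147 in old mice. Old replicate 2 was the highest of all 10 and the other 4 old mice lay within or below the young range. Its log2 fold change was -0.14, with an interval of -0.73 to 0.46. Robo2, Robo3 and Slit1 had too few reads for the comparison. Robo2 had 14 reads over the young mice and 14 over the old mice, and Robo3 had 1 read in all. Slit1 had 1 read in 1 young library and 14 reads in 4 old libraries.

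Among the ephrins, the membrane ligands of the Eph receptors, 2 of 7 tested fell and none rose. Efnb2, a transmembrane ephrin that marks arterial endothelium and is also made by arterial smooth muscle (chr8:8617434-8661242, minus strand), fell. Its normalized counts were 2196, 1879, 2371, 1801 and 1712 in young and 1483, 1189, 1113, 1697 and 1359 in old mice. The highest old value, that of replicate 4, was just below the lowest young value. The means were 1992 ± 279.7 in young and 1368 ± 234 in old mice, with a log2 fold change of -0.53 (SE 0.12, adjusted p = 0.0151). Leaving out any single mouse kept this call.

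Efna5, a lipid-anchored ligand of A-type Eph receptors and the most abundant A-type ephrin per length (chr17:62604184-62881317, minus strand), fell as well. Normalized counts were 1063, 1016, 1099.7, 1067 and 1302 in the young mice and 971, 931, 812, 974 and 774 in the old mice, without overlap. The means were 1109.7 ± 112 in young and 892 ± 93.3 in old mice, with a log2 fold change of -0.31 (SE 0.08, adjusted p = 0.0333). Here the call was lost without any one of young replicates 3, 4 and 5 and old replicates 3 and 5, at adjusted p of 0.0565 to 0.0824. Efna1, Efna2, Efna3, Efna4 and Efnb1 had log2 fold changes of 0.00, -0.13, 0.23, 0.05 and -0.09. For Efnb1, with 368 ± 52.7 in young and 344 ± 10.9 in old mice, the interval was -0.29 to 0.12. The intervals of the other 4, with means of 16.8 to 207 normalized counts in young mice, were wider. Efnb3, the only one of the 9 genes below the low-count limit with at least 30 reads, had 48 reads over the young mice and 40 over the old mice (mean normalized counts 9.54 and 8.07, exact permutation test, two-sided, p = 0.706, n = 5 per group).

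Of the Eph receptors, receptor tyrosine kinases that bind ephrins on neighbouring cells, 4 of 10 tested fell and none rose. Epha1, an A-type receptor (chr6:42358487-42373268, minus strand), had the lowest adjusted p of all 61 genes. Its normalized counts were 171, 151, 151, 167 and 149 in young and 109, 99.2, 90.4, 106 and 96.3 in old mice. The groups did not overlap, with means of 158 ± 10.5 in young and 100.2 ± 7.47 in old mice and a log2 fold change of -0.65 (SE 0.10, adjusted p = 0.00163). The gene Zyx on the other strand overlaps 6.01% of the exonic sequence of Epha1. The authors list Zyx among the genes lower in old aortae, and the part of this overlap in the Epha1 result was not tested. Epha4, which binds ephrins of both types (chr1:77367185-77515088, minus strand), had 358, 253, 454, 352 and 314 normalized counts in young and 239.8, 249.5, 166, 271 and 210.0 in old mice. Young replicate 2 lay below old replicate 4, so that the groups overlapped. The means were 346 ± 73.4 in young and 227 ± 40.7 in old mice, with a log2 fold change of -0.60 (SE 0.16, adjusted p = 0.0285). Without any one of young replicates 3 and 4 and old replicates 3 and 5, the adjusted p was 0.0553 to 0.07, and the call was lost.

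Ephb1, a B-type receptor (chr9:101922128-102354693, minus strand), was the least abundant of the tested Eph receptors per length and had the largest fall. The young mice had 21.5, 39.2, 27.9, 31.9 and 50.2 normalized counts and the old mice 16.0, 12.0, 10.3, 17.4 and 13.6. Each young mouse lay above all old mice. The means were 34.1 ± 11.1 in young and 13.8 ± 2.89 in old mice, with a log2 fold change of -1.29 (SE 0.27, adjusted p = 0.00824). The call held under all 19 alternatives. Ephb4, the receptor of ephrin B2 that marks venous endothelium (chr5:137350109-137378669, plus strand), fell by less. It had 1425, 1162, 1489.6, 1216 and 1302 normalized counts in young and 1049, 1226, 1028, 1087 and 1096 in old mice. Old replicate 2 lay above young replicates 2 and 4. The means were 1319 ± 138 in young and 1097 ± 77.1 in old mice, with a log2 fold change of -0.26 (SE 0.08, adjusted p = 0.046). This was the call nearest to the threshold. It was lost without any one of young replicates 1, 3, 4 and 5 and old replicates 1, 3, 4 and 5, at adjusted p of 0.0521 to 0.1, and with upper-quartile scaling or library size alone, at 0.081 and 0.0899.

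The other 6 tested Eph receptors were not called. Epha3, at about the level of Ephb4 per length, had means of 2298 ± 188 in young and 2155 ± 249 in old mice and a log2 fold change of -0.08, with an interval of -0.26 to 0.09. Ephb2, Ephb3 and Ephb6, a receptor without kinase activity, had -0.21, -0.17 and -0.20, and Epha2 and Epha7 had -0.33 and 0.15. Thus all 5 B-type receptors had negative estimates, 2 of which passed the threshold. No read of Epha6 or Epha10 was counted in any library. Epha5 had 12 reads in all, Epha8 had 4, and the netrin Ntn5 had 1.

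**Figure D2:**
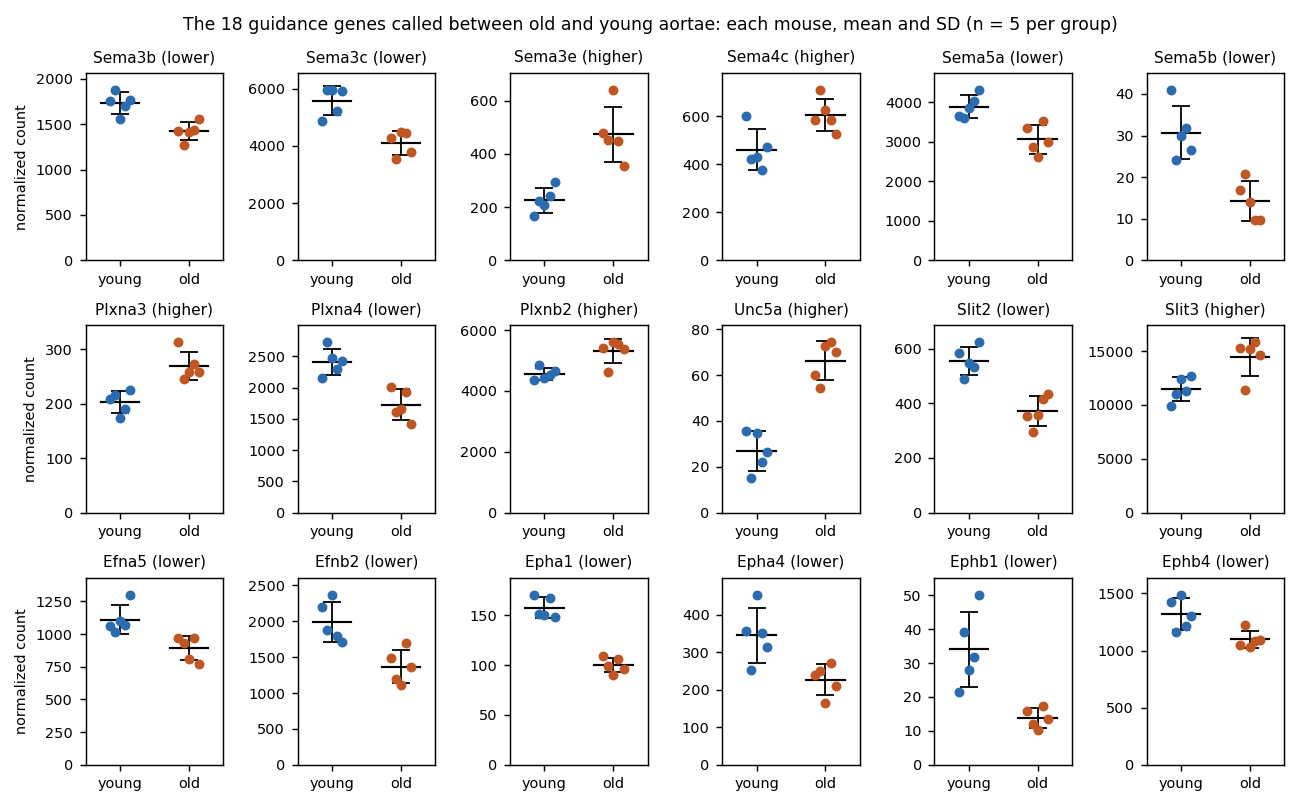
Normalized count (y axis, from 0, a separate scale for each gene) of the 18 guidance genes called between groups. Each point is 1 mouse, blue young and orange old, and bars are the mean and SD (n = 5 per group). The groups do not overlap for 13 genes and overlap for Epha4, Slit3, Plxnb2, Sema4c and Ephb4.

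The level per length differed widely between members. Ordered by the mean over all 10 mice, the first of each family were Slit3 (87.2 and 111 CPM per kilobase), Ntn1 (84.9 and 82.7), Sema3f (38.2 and 33.0), Plxnb2 (27.3 and 31.9), Ephb4 (13.1 and 11.0), Efna5 (12.7 and 10.3), Nrp1 (10.7 and 10.2), Unc5b (7.86 and 6.37) and Robo4 (1.48 and 1.35) in young and old mice. Among the ephrins, Efnb2 was at about the level of Efna5, with 13.4 in young and 9.26 in old mice. Ephb4 and Epha3 did not differ beyond their spread, since Epha3 had 12.2 ± 0.988 in young mice against 13.1 ± 1.38 for Ephb4, and 11.5 in old mice against 11.0 ± 0.786. Nor did Sema3f and Sema3c in the young mice, where Sema3c had 36.0 ± 3.29 and Sema3f 38.2 ± 2.71. The measured Robo receptors were far below Slit3, whereas the mean of Slit2 lay between theirs. Robo4 and Robo1 had 1.48 ± 0.451 and 0.394 ± 0.0686 in the young mice, against 87.2 ± 8.65 for Slit3 and 1.01 ± 0.0912 for Slit2 (SD, n = 5). The place of Slit2 depends on the exonic length used, 25433 bases against 6067 for Slit3, 5302 for Robo4 and 16511 for Robo1. Of the genes that changed the most, Sema5b, Ephb1 and Unc5a were low, with 0.20, 0.225 and 0.298 CPM per kilobase in young mice, and Sema3e was higher, at 1.12.

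**Figure D3:**
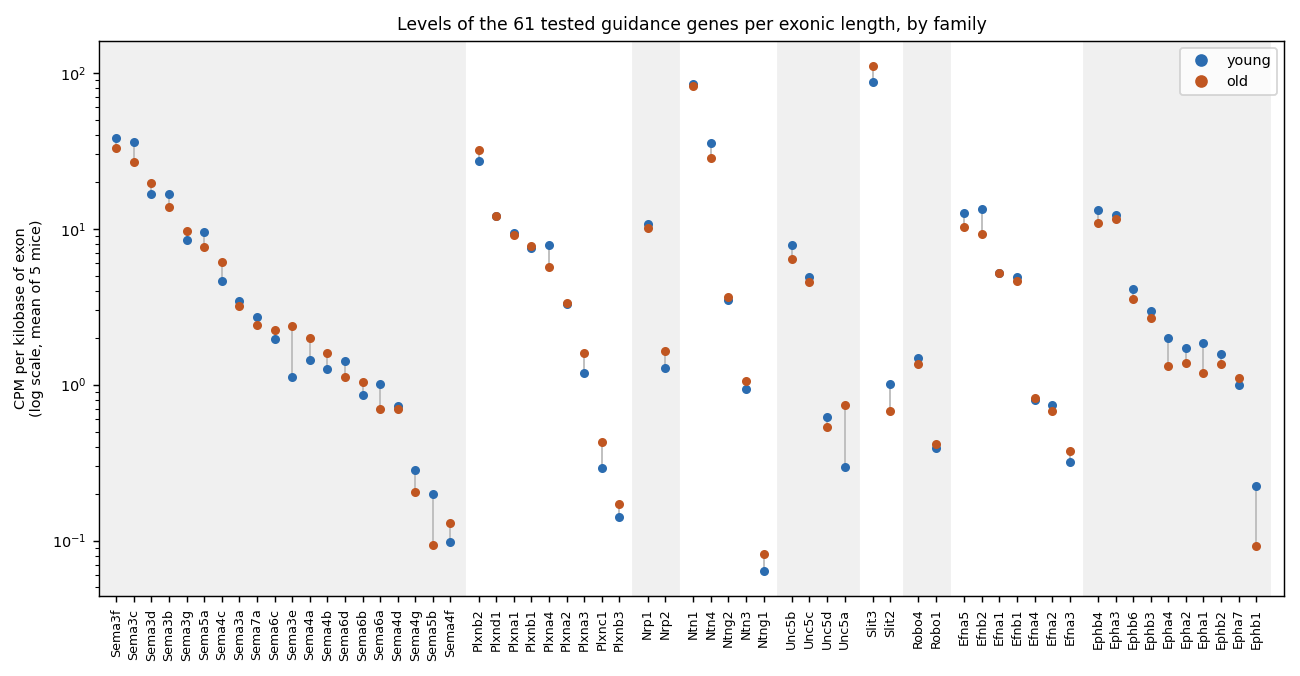
Mean level of the 61 tested guidance genes in CPM per kilobase of exon (y axis, log scale), blue for 5 young and orange for 5 old mice, ordered by level within each family (x axis). Slit3 and Ntn1 stand highest, at 87.2 and 84.9 in young mice, and the long lines mark Sema3e, Sema5b, Unc5a and Ephb1.

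Several members are made by endothelial cells, and the endothelial markers were lower on average in old aortae. Their sum, with 12 of 12 markers detected, was 1115 to 1859 CPM in young and 658 to 1336 in old mice (means 1381 ± 321 and 898 ± 272, SD, n = 5 per group, exact permutation test, two-sided, p = 0.0476, adjusted p = 0.143 over 15 such tests of marker sums, total count and mitochondrial share). Estimates were negative for 11 of the 12, with a median log2 fold change of -0.46, and 1 of them, Tek, was called, at -0.87. Young replicates 1 and 3 and old replicate 2 had the highest marker sums. Efnb2 and Ephb4 were highest in young replicates 1 and 3 too, and among the old mice Ephb4 and Robo4 were highest in old replicate 2, whereas Efnb2 was not. Robo4, Plxnd1, Nrp1 and Unc5b, which are known from endothelial cells, were not called, and the interval of Robo4 was wide (-0.73 to 0.46). In old replicate 2, Plxnd1 (2173) was also the highest of the old mice, whereas Nrp1 (1973) and Unc5b (563) were the lowest. The part of the endothelial share in the falls of Efnb2 and Ephb4 was not tested.

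**Figure D4:**
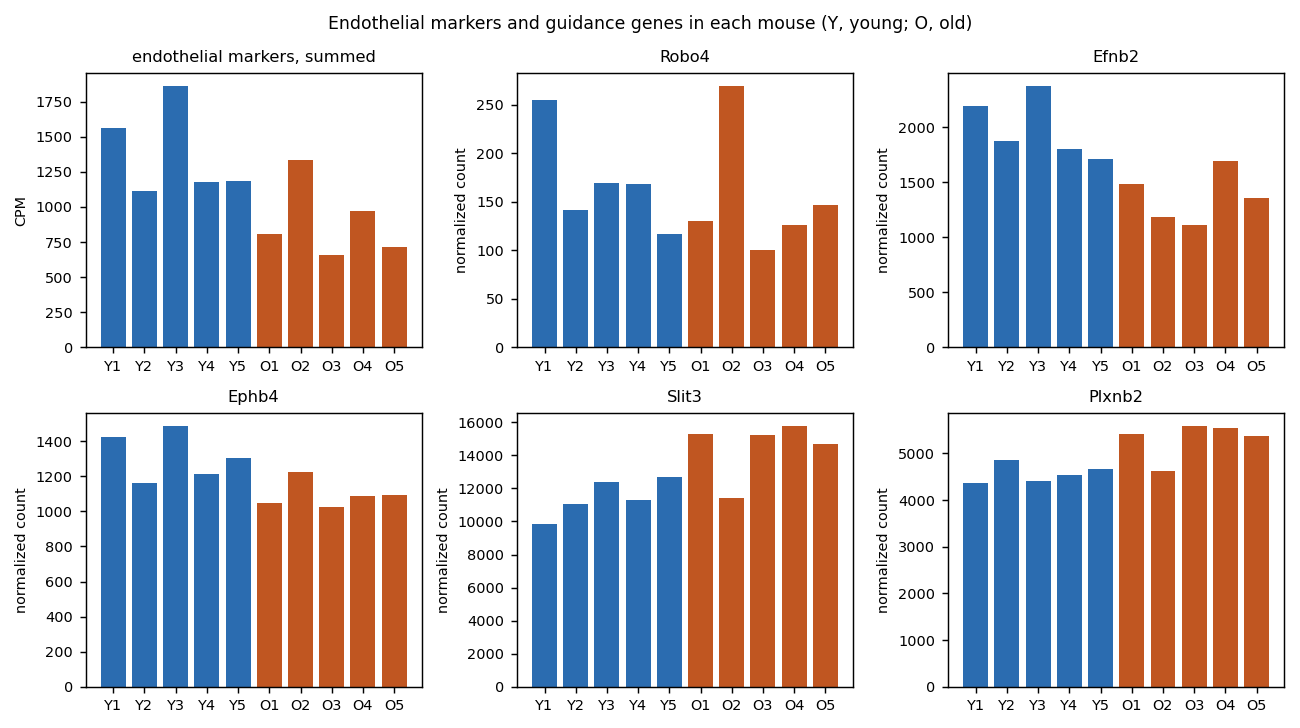
Summed endothelial markers in CPM (first panel) and normalized counts of 5 guidance genes in each mouse (y axes from 0). Blue bars are young mice (Y1 to Y5) and orange bars old mice (O1 to O5), 1 library each. Old replicate 2 is the highest old mouse for the markers (1336) and for Robo4 (269) and the lowest for Slit3 (11430) and Plxnb2 (4613).

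Of the other cell types, macrophages, T cells and adipocytes had the lowest p, none of them below 0.05 after adjustment. Macrophage markers, 7 of 7 detected, summed to 347 to 447 CPM in young and 451 to 907 in old mice (exact permutation test, p = 0.00794, adjusted p = 0.0794), and 3 of the 7 were called higher. The groups did not overlap for this sum, and with 5 mice per group its p is the lowest that the exact test can give. A single sum at this lowest p could not have passed 0.05 after adjustment over the 15 tests. T cell markers, 7 of 7 detected, were at 0.659 to 3.25 and 2.09 to 9.48 (p = 0.0159 in the same exact test, adjusted p = 0.0794), and adipocyte markers, 6 of 6 detected, at 288 to 1114 and 132 to 410 (p = 0.0476 in the exact test, adjusted p = 0.143). Of the 3 T cell markers with enough reads to be tested, 2 were called higher, Cd3g and Cd4, and no adipocyte marker was called. Unadjusted, the exact permutation test gave p = 0.325 for smooth muscle, 0.96 for fibroblast, 0.127 for lymphatic endothelial, 0.262 for pericyte, 0.357 for Schwann cell, 0.405 for B cell, 0.111 for mesothelial and 0.27 for heart and skeletal muscle markers. All of these markers had at least 1 read. The part of these cells in the member results was not tested.

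The 18 calls differed in how far they depended on single mice and settings. Leaving out each of the 10 mice in turn kept 11 calls every time: Efnb2, Epha1, Ephb1, Plxna3, Plxna4, Sema3b, Sema3c, Sema3e, Sema5b, Slit2 and Unc5a. The 7 calls of Epha1, Ephb1, Plxna4, Sema3c, Sema3e, Slit2 and Unc5a passed the threshold under all 19 alternatives. No member changed direction in any of the 342 results of the 18 genes under the 19 alternatives. Without old replicate 2, 18 members were called, 17 of them the same genes, with Plxnc1 in place of Sema4c. Without young replicate 1 there were 21, of which 17 were the same.

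**Figure D5:**
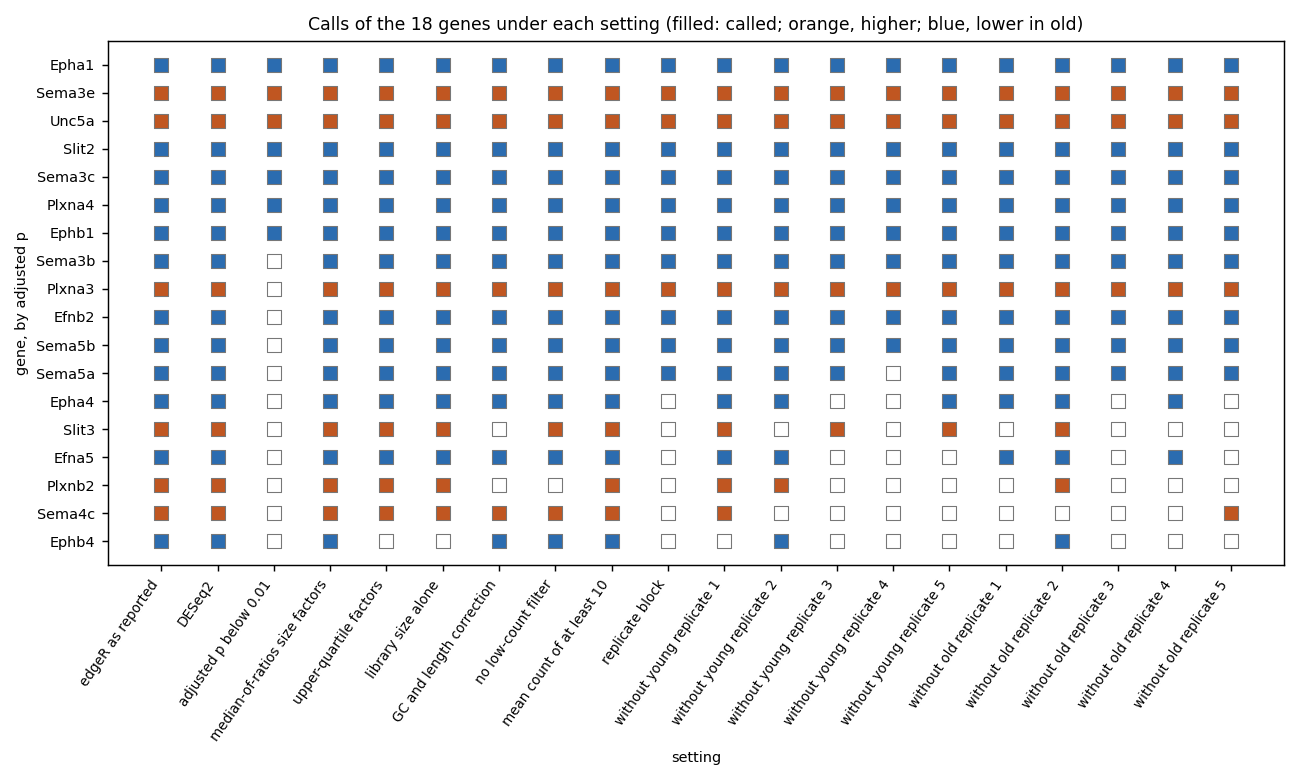
Calls of the 18 guidance genes (y axis, by adjusted p) as reported and under 19 alternatives (x axis). Filled squares mark a call, orange higher and blue lower in old aortae, and open squares mark none. The 7 genes at the top are filled throughout, and Ephb4, Sema4c, Plxnb2, Efna5, Slit3 and Epha4 hold most of the open squares.

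Promoter windows matched 61 of the 70 members by symbol, not the same 61 as those tested, with 77 windows in all, among them 6 of the 6 members that rose and 10 of the 12 that fell. On either strand, the GC box GGGCGG was in the windows of 45 of the 61 genes, of all 6 that rose and of 8 of the 10 that fell. It was in 54 of the 77 member windows and in 35.7% of all 32851 RefSeq promoter windows of the same length. The member windows were richer in G and C than all windows, with a median of 64% against 52.7%, and in CG pairs, with 19 against 7. The TATA box TATAAA was in 2 members, Efnb2 and Slit2, both of which fell, and in 13.6% of all windows. The E-box CACGTG was in 5 members (7.15% of all windows), of which Sema3e rose, and the AP-1 motif TGANTCA was in 3 (7.81%), of which Sema4c rose. The TEAD motif GGAATG was in 10 members (14.7%), of which Efnb2 and Epha1 fell, the ETS motif CCGGAAG in 2 (8.86%), neither of them called, and the forkhead motif TGTTTAC in none (3.65%). None of these motifs contains another. These matches describe the letters of the windows only.

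Beyond the families themselves, 125 co-receptors, adaptors and effectors of guidance signalling were read from the same comparison. Of the 115 tested, 14 rose and 7 fell, 18.3% together, against 11.5% of all genes, with a median log2 fold change of -0.01. By direction, 12.2% rose, against 6.48% of all genes, and 6.09% fell, near the 4.99% of all genes. In the lists below, in their order, 20%, 20%, 12.5%, 15% and 23.8% of the tested genes were called. Of these 21 calls, 13 held when any single mouse was left out. The list was drawn up with earlier results of these data known. Dcc, the classical netrin receptor, was listed at 0 in every library.

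Among other guidance ligands and receptors, 4 of 25 tested rose and 1 fell. Neo1, the netrin receptor neogenin, fell, with means of 6053 ± 495 in young and 4914 ± 554 in old mice and a log2 fold change of -0.29 (SE 0.08, adjusted p = 0.0385). Cntn1, a contact protein of nerve fibres, rose, with means of 6.43 ± 2.32 in young and 60.5 ± 19.5 in old mice and a log2 fold change of 3.22 (SE 0.31, adjusted p = 5.09e-05). Lingo1, a partner of the Nogo receptor, had a log2 fold change of 1.35 (SE 0.24, adjusted p = 0.00305). The adhesion protein Flrt1, which binds Unc5 receptors, and Igsf8 rose by 0.47 and 0.28 on the log2 scale. Neo1 was not called without any one of young replicates 2, 3 and 4 and old replicates 1, 2 and 5 (adjusted p of 0.0533 to 0.0906), nor was Flrt1 without any one of young replicates 2 to 5 and old replicates 1, 3, 4 and 5 (0.0561 to 0.117).

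In semaphorin and plexin signalling, 3 of 25 rose and 2 fell. The collapsin response proteins went in opposite directions, with log2 fold changes of 1.71 (SE 0.36, adjusted p = 0.0091) for Dpysl4 and -0.72 (SE 0.18, adjusted p = 0.0212) for Dpysl5. Farp1, an exchange factor that binds A-type plexins, and the small GTPase Rnd2 rose by 0.34 and 0.46 on the log2 scale, and its relative Rnd1, which binds plexins, had -0.47. Dpysl5 was not called without old replicate 3 (adjusted p = 0.0517), and Rnd1 without any one of young replicates 2, 3 and 4 and old replicates 2 to 5 (0.0694 to 0.0965). In netrin, Slit and Robo signalling, 1 of 24 rose and 2 fell: the log2 fold change was 0.32 for the actin regulator Cap1, -1.29 for the ubiquitin ligase Trim67, which binds Dcc, and -0.49 for the actin-binding Ablim1.

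Among the genes of ephrin and Eph signalling, 2 of 20 rose and 1 fell. Ngef, an exchange factor that acts downstream of Epha4, rose, with means of 552 ± 64.3 in young and 997 ± 173 in old mice and a log2 fold change of 0.86 (SE 0.12, adjusted p = 0.000583). Shc1, an adaptor, rose by 0.18 on the log2 scale, and the shedding protease Adam17 had -0.41. Shc1 was not called without any one of young replicates 2 to 5 and old replicates 3, 4 and 5 (adjusted p of 0.051 to 0.0678). Of the 21 cytoskeletal effectors, 4 rose and 1 fell. The p21-activated kinases Pak1 and Pak3, targets of Rac and Cdc42, rose by 0.97 and 0.76, and Pak1 had means of 133 ± 14.7 in young and 258 ± 29.0 in old mice, without overlap between the groups. Rac2, the Rac of blood cells, rose by 0.99 and Rhod by 0.43, and the myosin light chain Myl12a had -0.44. Rac2 was not called without young replicate 2, 4 or 5 (adjusted p of 0.0753 to 0.0786), Pak3 without young replicate 4 (0.0516), and Myl12a without young replicate 4 or 5 or old replicate 5 (0.0527 to 0.0632).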

How the data were processed

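Poly(A) RNA of 10 mouse aortae, 5 young and 5 old, was sequenced from stranded libraries. The authors trimmed reads and removed short ones with fastp 0.20.0, aligned them to GRCm38 with STAR 2.7.0f and counted them per gene with featureCounts of Subread 1.6.4. The deposited table gives these raw counts per gene symbol, without normalization. The strand setting and the treatment of reads with several alignments are not given in the sources used here.

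Genes passing filterByExpr, 14614 of 28011 with a count, were compared with edgeR 4.0.16 (quasi-likelihood F test, robust, TMM, no covariates, R 4.3.3), Benjamini-Hochberg adjusted over all of them and a gene counted as called below 0.05, whatever its fold change. Intervals are 95% intervals. Normalized counts are counts divided by size factors of DESeq2 1.42.0. Levels per length use TMM-scaled CPM and GENCODE M21 exonic lengths. The authors used M22. Single values were compared by exact two-sided permutation tests. The fit was tested on simulated counts. Sampling depth was 19640401 to 22886153 counts per mouse, and the spread between mice, 1 library each, is part of each standard error. Promoter windows are from RefSeq.

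The members and lists were chosen with earlier results of these data known. The named genes were, by rule, every called member with all its values, the most abundant member of each family, the other members by counts and ranges, and every called gene of the downstream list. The opposed pairs and the Slit1 reads were added after the values were seen. Alternatives were DESeq2, other scalings and filters, a stricter threshold, a GC and length correction, the replicate number as a block and leaving out each mouse. Protein sequences were not used here.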

Additional observations from a re-analysis of the deposited data

Results flagged for a closer look

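In 3 results, a mouse lay far from the other 4 of its group, all in old replicate 2. Slit3 had 11430 normalized counts in this mouse, against 14671 to 15803 in the other old mice. Plxnb2 had 4613, against 5368 to 5595. Robo4 had 269, against 101 to 147. In all, 46 groups of 5 mice were examined, for 23 genes, by the gap to the nearest value over the whole range (critical value 0.71), and chance alone marks about 5% of groups. The same mouse had 11.0% of its counts on mitochondrial genes and the highest endothelial marker sum of the old group, and the part of these in the 3 values was not tested.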

How the results depend on the processing

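None of the 342 results of the 18 called members under the 19 alternatives changed direction, and 281 of them stayed past the threshold. At an adjusted p below 0.01, 7 members were called, 2 higher and 5 lower, with 10 genes of the downstream list and 658 of all genes, since this threshold is stricter. DESeq2 called 20 members and 2325 genes. With single mice left out, the counts ranged from 11 to 21 members, 3 to 9 higher, 8 to 12 lower, 15 to 28 genes of the downstream list and 1132 to 2367 of all genes. The other scalings and filters and the correction for GC content and length called 17 or 18 members, and the share of all calls that were higher ranged from 47.3% with that correction to 63.6% with upper-quartile factors, against 56.5% as reported. With the replicate number as a block, 12 members were called, 3 of them higher, and 1261 genes. The calls lost with this block were those of Efna5, Epha4, Ephb4, Plxnb2, Sema4c and Slit3. The labels state no pairing of mice by number. Same-numbered young and old mice correlated at -0.30 to 0.13 in their deviations from the group means, and 4 of 10 mice correlated best with their own number. With 5 mice per group, these correlations cannot decide whether equal numbers were handled together. Any 2 mice of a group differed by 8.06 to 58.8 times the counting error (chi-square statistic per degree of freedom in 20 pairs), so that no library was a copy of another. Depth limits the 9 members with the fewest reads, of which Epha6 and Epha10 had none. P-values set the difference between the groups against the spread between these mice, and edgeR draws on all tested genes to estimate this spread.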
